A study of Mus musculus with 5 samples.

Results

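This account is about 9 genes of the complement system in cultured mouse adrenal cells: *C1qa*, *C1qb*, *C1qc*, *C4b*, *C2*, *C3*, *Cfb*, *Serping1* and *C3ar1*. They were taken by gene symbol, with the transcript of the highest mean kept for each symbol, and are 9 of the 23903 genes of the table. RNA was sequenced from spheres of L1CAM-positive cells, which are chromaffin cells of the adrenal medulla by their label, and of L1CAM-negative cells, labelled as non-adrenergic, after immunopanning of dissociated postnatal adrenals on an antibody to the adhesion molecule L1CAM. There were 2 L1CAM-positive libraries, numbered 25 and 31, and 3 L1CAM-negative ones, numbered 25, 31 and 28. Numbers 25 and 31 came from an equal mix of P0 and P2 mice and number 28 from P5 mice, numbers 25 and 28 were kept as spheres for 8 days and number 31 for 5 days, and all were grown in serum-free medium with EGF, FGF and heparin. All mice carry the strain label C57/bl6, whereas the study's methods name OF-1 mice, and the labels name no genetic change and no drug. The L1CAM-negative fraction is a mixture of cell types, the libraries of numbers 25 and 31 pool mice of 2 ages, and no label says whether libraries of 1 fraction are separate cultures. Each p-value therefore measures only how far these libraries differ, which may in part be technical and in the L1CAM-negative fraction takes in differences of age and culture period.

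Complement is a cascade of secreted proteases and binding proteins that tags particles for uptake by phagocytes, attracts immune cells and can punch pores in membranes. The classical pathway starts with C1q, which activates the proteases C1r and C1s, and these cut C4 and C2 to build an enzyme that cleaves C3. The alternative pathway builds another such enzyme from C3 and factor B. The C1 inhibitor, product of *Serping1*, blocks C1r and C1s, and C3ar1 is the receptor on cells for the fragment C3a. The liver makes most of the complement in plasma, but macrophages are the main source of C1q, and fibroblasts and endothelial cells make several of the other components.

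The values are log2(FPKM + 2), where FPKM is fragments counted per length of transcript and scaled to the size of the library and the offset of 2 is an inference, as no value of the table is under 1. A difference of 2 means on this scale is called a log2 ratio, and it understates the ratio of the FPKM where a gene is weak, so that FPKM with the offset taken off are given as well. The depth of the libraries is unknown. Chromaffin cell genes went with the labels, 7 of 10 being higher in the L1CAM-positive fraction, where 11.6% of all genes were. Their summed FPKM were 8523 and 6762 in L1CAM-positive spheres against 490, 533 and 99.2 in L1CAM-negative spheres. In such bulk samples, fewer cells of a type and less RNA per cell cannot be told apart.

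*C3* and *C2* were lower in L1CAM-positive spheres, *C3* by far the most. All 9 complement genes had their higher mean in L1CAM-negative spheres, and for 8 of them both L1CAM-positive libraries lay below all 3 L1CAM-negative ones, as did 26.0% of all genes. None lay the other way, as 23.0% of all genes did. In limma's test, with adjustment over all genes and a threshold of 0.05, *C3* and *C2* were lower in L1CAM-positive spheres and 7 genes were not called. Thus 2 of 9 passed in this direction, where 10.0% of all genes tested did, and 5 of 9 had an unadjusted p under 0.05, where 17.4% of all genes did. The median log2 ratio of the 9 genes, with L1CAM-positive spheres on top, was -2.02 beside 0.00 over all genes, and 1.22% of all genes had a log2 ratio below this median.

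**Figure D1:**
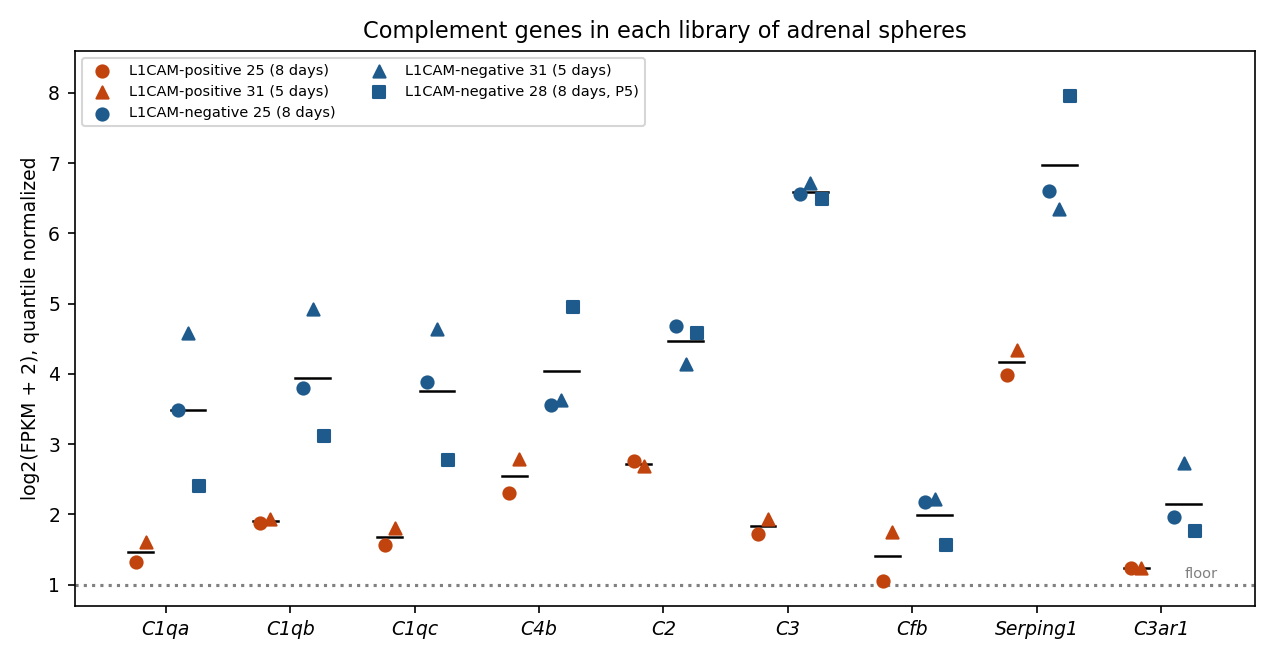
Level of each complement gene as log2(FPKM + 2) in the 5 libraries, with L1CAM-positive spheres in red on the left and L1CAM-negative spheres in blue on the right of each gene, group means as black lines and the floor of the scale dotted. *C3* lay between 1.72 and 1.94 in L1CAM-positive and between 6.48 and 6.72 in L1CAM-negative spheres, whereas the *C1q* genes, *C4b* and *Serping1* were spread out among the L1CAM-negative libraries.

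*C3* encodes the component on which all complement pathways converge, and its promoter is shown here because this gene had the largest difference of the 9 between the fractions. The gene lies on the minus strand of chromosome 17 of GRCm38.p6 from 57203967 to 57228136. The 300 bases from 250 before to 50 after its start (RefSeq, chr17:57228087-57228386, minus strand) are printed in lower case with a C/EBP-like match in capitals.
*C3*: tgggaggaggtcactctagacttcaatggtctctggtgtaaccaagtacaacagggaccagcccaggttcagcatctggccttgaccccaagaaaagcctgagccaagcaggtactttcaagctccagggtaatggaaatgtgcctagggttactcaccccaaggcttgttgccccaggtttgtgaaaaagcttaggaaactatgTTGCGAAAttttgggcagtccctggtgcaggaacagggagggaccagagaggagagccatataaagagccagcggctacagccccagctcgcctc
Both strands were searched for 5 motifs, TTGCNNAA (C/EBP-like), TTCNNNGAA (GAS-like), AAANNGAAA (ISRE-like), GGANTTTCC (kappa-B-like) and GAGGAA (PU.1-like), of which only TTCNNNGAA can hold another, GAGGAA, within it. The match in *C3* starts 45 bases before the gene's start, and 10.8% of the 32851 promoters of the same length in the table hold TTGCNNAA. It was the only match of the 5 motifs in this window, and a match is a description of letters, not a site.

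*C3* stood at 1.72 and 1.94 in L1CAM-positive numbers 25 and 31, against 6.57, 6.72 and 6.48 in L1CAM-negative numbers 25, 31 and 28. The libraries of each fraction lay close together and the fractions far apart. The log2 ratio was -4.76 (SE 0.11, limma adjusted p = 0.00287), and 39 of the 23903 genes had a more negative one. In FPKM, *C3* was at 1.30 and 1.83 in L1CAM-positive spheres against 92.7, 103 and 87.6 in L1CAM-negative spheres. The level in L1CAM-positive spheres was thus 1.41% of that in L1CAM-negative spheres for number 25 and 1.77% for number 31. In L1CAM-negative spheres *C3* ranked above 95.7% to 96.4% of all genes, and in L1CAM-positive spheres above 45.9% and 47.9%. *C3* was called in 16 of 17 alternative analyses, the exception being the fit with the label number as a block.

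*Cfb* encodes factor B, the protease that joins with C3 in the alternative pathway, and its row gave no call. Its kept transcript, NM_008198, was at 1.06 and 1.75 in L1CAM-positive spheres against 2.18, 2.22 and 1.57 in L1CAM-negative spheres. Here the fractions overlapped, with L1CAM-positive number 31 above L1CAM-negative number 28, and the log2 ratio was -0.59 (SE 0.34, limma adjusted p = 0.342). The other transcript of the gene, NM_001142706, was at 1.73 and 1.00 in L1CAM-positive spheres against 1.01, 1.00 and 2.05 in L1CAM-negative spheres. It was thus well above the floor in just the 2 libraries where NM_008198 was lowest. Summed over both transcripts, the FPKM of *Cfb* were 1.39 and 1.36 in L1CAM-positive spheres against 2.56, 2.66 and 3.10 in L1CAM-negative spheres, so that the fractions no longer overlapped. With transcripts summed, the log2 ratio was -0.50 (SE 0.07) and passed the test (limma adjusted p = 0.0174), whereas over the 17 alternatives its adjusted p lay between 0.0174 and 0.882. The other genes listed for the alternative pathway are those of factor D, which cuts factor B, and properdin, which stabilizes the enzyme on surfaces. *Cfd* was at the floor in all 5 libraries, and *Cfp* was at 2.96 and 2.59 in L1CAM-positive spheres against 3.00, 3.63 and 2.87 in L1CAM-negative spheres, with overlapping fractions (limma adjusted p = 0.484).

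*C2* encodes the protease of the classical C3-cleaving enzyme. It was at 2.76 and 2.68 in L1CAM-positive spheres against 4.68, 4.14 and 4.58 in L1CAM-negative spheres. The fractions did not overlap and each varied little, and the log2 ratio was -1.75 (SE 0.20, limma adjusted p = 0.0136). In FPKM, *C2* was at 4.78 and 4.43 in L1CAM-positive spheres against 23.6, 15.7 and 21.9 in L1CAM-negative spheres. *C2* did not pass the test without L1CAM-positive number 25, without L1CAM-positive number 31, and likewise not without number 25 of the L1CAM-negative spheres. Over the 17 alternatives its adjusted p lay between 0.00229 and 0.0882. *C2* and *Cfb* are neighbors in the major histocompatibility region of chromosome 17, with 87 bases between the end of *Cfb* at 34862514 and the start of *C2* at 34862602 on the same strand. None of the 50-base windows of the *C2* transcripts occurs in *Cfb*.

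*C4b*, the gene of complement C4, lies in the same region from 34728139 to 34743902 and differed among the L1CAM-negative libraries. It was at 2.31 and 2.78 in L1CAM-positive spheres against 3.55, 3.63 and 4.95 in L1CAM-negative spheres. The P5 library stood 1.40 log2 units above number 25. Although the fractions did not overlap, the log2 ratio of -1.50 (SE 0.55) did not pass the test (limma adjusted p = 0.161), and it passed in none of 17 alternatives. Its value is uncertain, as 35.2% of the 50-base windows of the *C4b* transcripts also occur in *C4a*, a neighboring copy that RefSeq lists as a transcribed pseudogene. Reads were 50 bases long and came in pairs, so that a shared window alone does not give the share of pairs that fit both genes. *C4a* was at 2.18 and 2.36 in L1CAM-positive spheres against 3.36, 3.10 and 3.60 in L1CAM-negative spheres, a log2 ratio of -1.08 (SE 0.19, limma adjusted p = 0.0329). It was called in 10 of 17 alternatives.

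*C1qa*, *C1qb* and *C1qc* encode the chains of C1q, which assemble in equal numbers into the molecule that recognizes antibodies and cell debris. The genes lie side by side within 18719 bases of chromosome 4. The promoters of *C1qb* (RefSeq, GRCm38.p6, chr4:136886151-136886450, minus strand) and *C1qc* (chr4:136892865-136893164, minus strand) are shown because these genes had the same order of libraries, with PU.1-like matches in capitals.
*C1qb*: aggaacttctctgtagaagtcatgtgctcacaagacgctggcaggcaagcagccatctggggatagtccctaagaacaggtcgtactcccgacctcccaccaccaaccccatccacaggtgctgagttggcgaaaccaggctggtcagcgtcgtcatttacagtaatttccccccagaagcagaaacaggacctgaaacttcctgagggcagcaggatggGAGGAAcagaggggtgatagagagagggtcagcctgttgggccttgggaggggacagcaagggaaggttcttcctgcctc
*C1qc*: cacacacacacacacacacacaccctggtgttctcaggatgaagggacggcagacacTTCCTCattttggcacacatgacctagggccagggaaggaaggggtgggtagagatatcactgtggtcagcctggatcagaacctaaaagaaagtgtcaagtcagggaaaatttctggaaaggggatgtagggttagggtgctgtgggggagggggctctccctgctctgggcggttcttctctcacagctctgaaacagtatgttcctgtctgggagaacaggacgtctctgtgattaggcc
Each holds GAGGAA once, *C1qb* from 30 bases before the start and *C1qc*, on the other strand, from 193 bases before it, and no other of the 5 motifs. Of all promoters in the table, 28.3% hold this short motif. The table holds the promoters of 4 of the 9 genes, the fourth being *C3ar1*, which has an ISRE-like match (10.6% of all promoters).

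*C1qa* was at 1.33 and 1.61 in L1CAM-positive numbers 25 and 31 against 3.49, 4.58 and 2.41 in L1CAM-negative numbers 25, 31 and 28. *C1qb* was at 1.88 and 1.93 in L1CAM-positive spheres against 3.80, 4.92 and 3.11 in L1CAM-negative spheres, and *C1qc* at 1.57 and 1.80 in L1CAM-positive spheres against 3.89, 4.63 and 2.77 in L1CAM-negative spheres, with the libraries in the same order. All 3 genes had the same order of libraries, lowest in L1CAM-positive number 25 and highest in L1CAM-negative number 31, with the P5 library the lowest of its fraction. The log2 ratios were -2.02, -2.04 and -2.08 for *C1qa*, *C1qb* and *C1qc*, but given the spread between L1CAM-negative libraries none passed the test (limma adjusted p = 0.159, 0.108 and 0.113). Without number 28, the P5 library, *C1qc* passed the test. *C1qb* and *C1qc* passed it when only genes with at least 1 FPKM in at least 2 libraries were tested.

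Summed over the 3 chains, C1q mRNA was at 3.14 and 4.35 FPKM in L1CAM-positive spheres against 33.9, 73.0 and 14.8 FPKM in L1CAM-negative numbers 25, 31 and 28. The ratio of *C1qb* to *C1qa* was 1.29 in both L1CAM-negative numbers 25 and 31, 2.02 in number 28, and 3.29 and 1.71 in the L1CAM-positive spheres, where *C1qa* was near the floor. The ratio of *C1qc* to *C1qa* lay between 1.04 and 1.46 in L1CAM-negative libraries.

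The genes of the proteases that C1q activates had values much closer together among the L1CAM-negative libraries than the *C1q* genes. *C1ra*, the gene of C1r, was at 2.81 and 2.84 in L1CAM-positive spheres against 4.86, 4.74 and 4.79 in L1CAM-negative spheres, a log2 ratio of -1.97 (SE 0.05, limma adjusted p = 0.00304). *C1s1*, the gene of C1s, was at 4.19 and 4.28 in L1CAM-positive spheres against 5.97, 6.02 and 5.79 in L1CAM-negative spheres, with -1.69 (SE 0.09, adjusted p = 0.00500). Both were called in 5 of 5 fits that each leave out a library. Their copies *C1rb* and *C1s2* had log2 ratios of -1.36 and -0.92 and were also lower in L1CAM-positive spheres, but 48.0% of the 50-base windows of *C1ra* occur in *C1rb* and 22.8% of those of *C1s1* in *C1s2*. Of the 10 genes listed for the classical pathway, 6 were lower at an adjusted p under 0.05, where 10.0% of all genes were, and 8 at an unadjusted one, where 17.4% were. None was higher at either, and the median log2 ratio was -1.72. Both L1CAM-positive libraries lay below all L1CAM-negative ones for 10 of 10, and for 26.0% of all genes. These counts take in *C1rb*, *C1s2* and *C4a*, which share windows with *C1ra*, *C1s1* and *C4b*, so that the calls need not be independent.

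**Figure D2:**
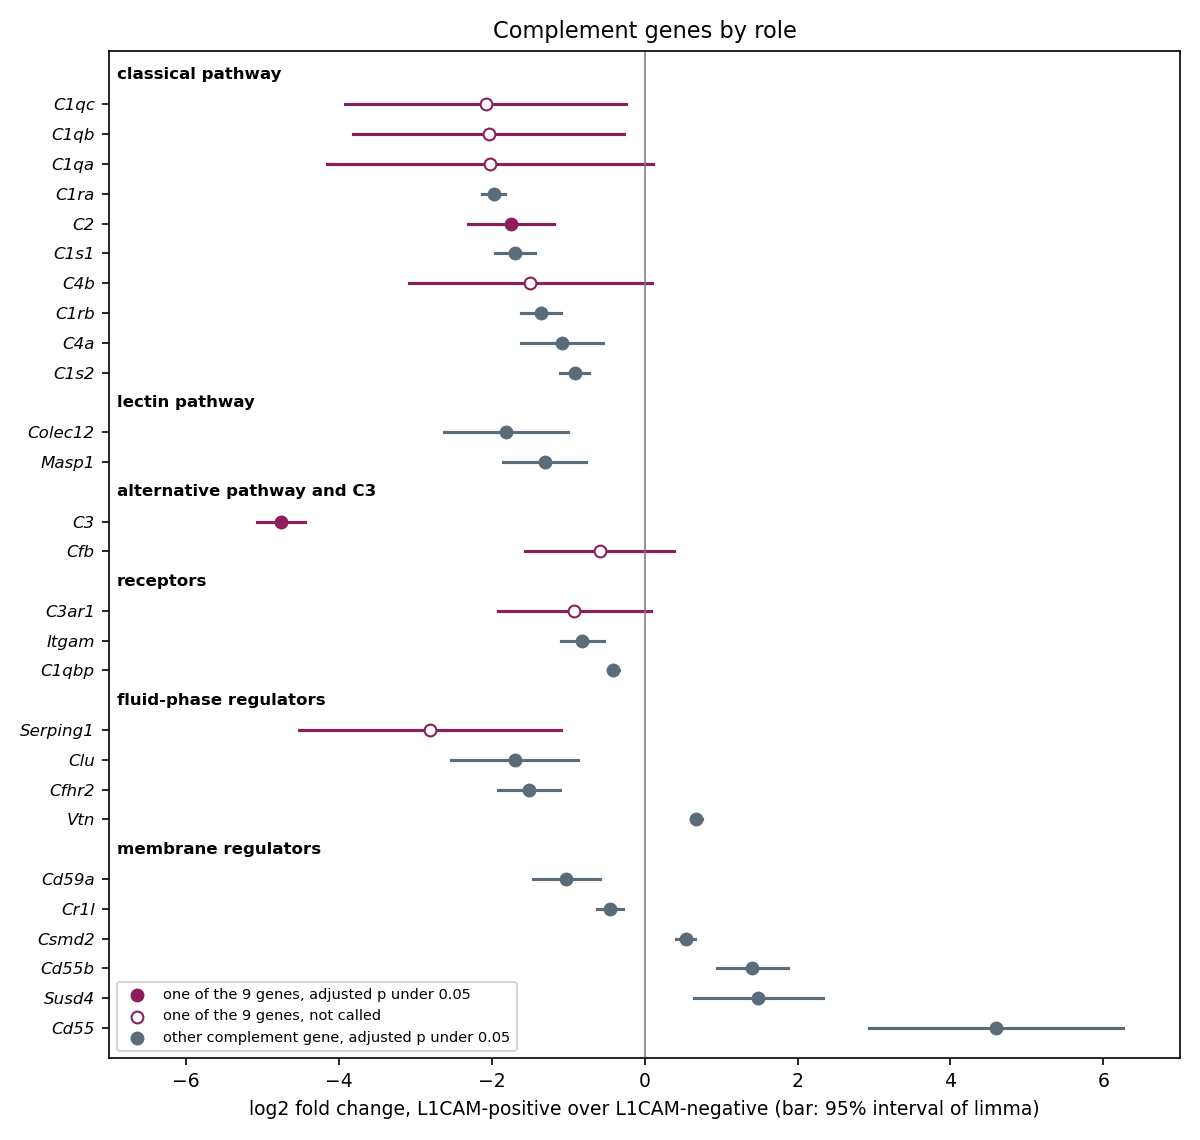
Log2 ratio, that is the mean of L1CAM-positive minus that of L1CAM-negative spheres, of the 9 complement genes (magenta) and of 18 of the 19 other complement genes past the threshold (grey), grouped by role, with 95% intervals of limma as bars and open points for genes not called. *C3* had the most negative value with -4.76, and *Cd55* of the membrane regulators lay on the other side with 4.60.

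*Serping1* encodes the C1 inhibitor and had the highest FPKM of the 9 genes in 4 of 5 libraries, all but L1CAM-negative number 31, where *C3* was above it. It lies on chromosome 2 from 84765360 to 84775444. Its level was 3.98 and 4.35 in L1CAM-positive spheres against 6.60, 6.34 and 7.95 in L1CAM-negative numbers 25, 31 and 28. The P5 library stood highest, 1.35 log2 units above number 25. The log2 ratio of -2.80 (SE 0.595) was just short of the threshold (limma adjusted p = 0.0514). *Serping1* was called in 5 of 17 alternatives, among them without number 28 and when genes at the floor throughout were not tested, with an adjusted p between 0.0120 and 0.227 over all of them. In FPKM it was at 13.8 and 18.3 in L1CAM-positive spheres against 95.3, 79.2 and 246 in L1CAM-negative spheres.

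Of the 10 genes listed for regulators in the fluid phase, 3 were lower in L1CAM-positive spheres, where 10.0% of all genes were. Only 1 was higher, near the 11.6% of all genes that were. *Clu*, which encodes clusterin, an inhibitor of the terminal complex with other roles as a chaperone, was at 7.14 and 6.58 in L1CAM-positive spheres against 8.93, 8.43 and 8.32 in L1CAM-negative spheres, a log2 ratio of -1.70 (limma adjusted p = 0.0321). It was called in 0 of the 5 fits that each leave out a library. *Cfhr2* was lower as well, with -1.51 (adjusted p = 0.00983). *Vtn*, the gene of vitronectin, which binds the terminal complex, was higher in L1CAM-positive spheres, at a low level of 1.72 and 1.67 in L1CAM-positive spheres against 1.00, 1.00 and 1.05 in L1CAM-negative spheres, a log2 ratio of 0.68 (adjusted p = 0.00373). *C4bp* was at the floor in every library and *Cfi*, the gene of the protease factor I, was at 1.85 in the P5 library and between 1.02 and 1.08 in the others.

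Regulators on the cell membrane went both ways. *Cd55* encodes decay-accelerating factor, which takes apart the C3-cleaving enzymes on the cell's own surface. It was at 8.57 and 7.97 in L1CAM-positive spheres against 4.23, 4.03 and 2.75 in L1CAM-negative spheres. Both L1CAM-positive libraries lay far above all others, with a log2 ratio of 4.60 (SE 0.58, limma adjusted p = 0.0167). It was called in 11 of 17 alternatives, and in only 1 of the 5 that leave out a library, the one without number 28. *Cd55b*, its second copy in the mouse, was at 2.80 and 2.40 in L1CAM-positive spheres against 1.32, 1.18 and 1.06 in L1CAM-negative spheres (adjusted p = 0.0140), and 10.1% of the 50-base windows of *Cd55* occur in it. *Susd4*, a sushi-domain protein, and *Csmd2*, a large sushi-domain protein of nerve tissue, were higher too, with log2 ratios of 1.49 (adjusted p = 0.0438) and 0.54 (adjusted p = 0.00774). *Susd4* was called in 7 of 17 alternatives and *Csmd2* in 13. *Csmd2* was near the floor, at 1.26 and 1.26 FPKM in L1CAM-positive spheres against 0.346, 0.238 and 0.150 FPKM in L1CAM-negative spheres. On the other side, *Cd59a*, whose product blocks the membrane attack complex, and *Cr1l*, which encodes the rodent regulator Crry, were lower in L1CAM-positive spheres, with -1.03 (adjusted p = 0.0235) and -0.45 (adjusted p = 0.0189). *Cd59a* was called in 10 of 17 alternatives and *Cr1l* in 11. Of 9 membrane regulators, 4 were thus higher, where 11.6% of all genes were, 2 were lower, where 10.0% of all genes were, and 3 were not called.

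*C3ar1*, which encodes the C3a receptor, was low in all libraries. It was at 1.24 and 1.23 in L1CAM-positive spheres against 1.96, 2.74 and 1.76 in L1CAM-negative numbers 25, 31 and 28, or 0.356 and 0.348 FPKM in L1CAM-positive spheres against 1.89, 4.66 and 1.39 FPKM in L1CAM-negative spheres. The fractions did not overlap, number 31 was the highest, and the log2 ratio of -0.92 (SE 0.35) did not pass the test (limma adjusted p = 0.169) nor in any of 17 alternatives. Of 10 receptors and binding proteins listed, 2 were lower at an adjusted p under 0.05, where 10.0% of all genes were, and 4 at an unadjusted one, where 17.4% were, and none was higher at either. The 2 were *Itgam*, the alpha chain of complement receptor 3, at 1.11 and 1.00 in L1CAM-positive spheres against 1.99, 1.89 and 1.72 in L1CAM-negative spheres (adjusted p = 0.0151), and *C1qbp*, whose mitochondrial product also binds C1q, with a log2 ratio of -0.41 (adjusted p = 0.00552). *Itgam* was at most at 1.96 FPKM in any library and was called in 10 of 17 alternatives. With its transcripts summed it did not pass the test (limma adjusted p = 0.0743). The beta chain gene *Itgb2* was at 1.15 and 1.44 in L1CAM-positive against 2.20, 3.04 and 2.06 in L1CAM-negative spheres and did not pass the test (adjusted p = 0.127).

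Of the 50 complement genes listed beside the 9, 14 were lower in L1CAM-positive spheres, 5 were higher and 31 were not called, where 10.0% and 11.6% of all genes were lower and higher. The median log2 ratio of the 50 was -0.14, and 16 of them were under 1 FPKM in every library. The lectin pathway list held 2 lower genes, *Masp1*, the gene of a protease of this pathway, with a log2 ratio of -1.31 (limma adjusted p = 0.0218) and *Colec12*, which encodes a scavenger receptor of the collectin family, with -1.82 (adjusted p = 0.0259). *Masp1* was called in 11 of 17 alternatives and *Colec12* in 10. *Mbl1* was at the floor in every library. The terminal pathway, which forms the membrane attack complex, had no call among 7 genes in limma's test, nor any at an unadjusted p under 0.05. *C7* was at 2.24 and 2.16 in L1CAM-positive spheres against 2.07, 2.04 and 4.45 in L1CAM-negative numbers 25, 31 and 28, and *C8g* was between 2.19 and 2.52 in all libraries. *C6*, picked with its values known, was at 1.26 and 1.22 in L1CAM-positive spheres against 1.64, 1.76 and 3.05 in L1CAM-negative spheres in the same order. Both *C6* and *C7* were thus highest in the P5 library. *Hc*, *C8a*, *C8b* and *C9*, which encode the other proteins of the complex, were under 1 FPKM in every library.

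The comparison of ages rests on 1 library each and has no replicate check. Between P5 and the P0 and P2 mix, both L1CAM-negative at 8 days, *C4b* and *Serping1* were higher in the P5 library by 1.40 and 1.35 log2 units, a difference of at least 1 that 1.69% of all genes reached. *C1qa* and *C1qc* were lower there by more than 1 unit, with -1.08 and -1.12, as were 1.46% of all genes, and *C1qb* had -0.68. *Cfb* had -0.61 for its kept transcript but 0.16 with both transcripts summed, so that its direction turned. *C3* with -0.08, *C2* with -0.10 and *C3ar1* with -0.20 differed less. The 9 genes thus differed in direction between these libraries.

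Between 8 days and 5 days in culture, in L1CAM-negative spheres of the P0 and P2 mix, *C1qa* and *C1qb* were lower at 8 days by more than 1 log2 unit, with -1.10 and -1.12, as were 0.552% of all genes. *C3ar1* and *C1qc* had -0.78 and -0.74, whereas *C3*, *C4b* and *Cfb* were within 0.15 units of each other between the libraries. *C2* stood 0.53 and *Serping1* 0.26 units higher at 8 days. In L1CAM-positive spheres no member differed by as much as 1 unit between 8 and 5 days, with values from -0.48 for *C4b* to 0.08 for *C2* and, for *Cfb*, -0.69 in the kept transcript but 0.01 with both summed, where 0.669% of all genes were lower and 0.423% higher by this much. The libraries compared for age were matched in culture period and those compared for culture period were matched in age, but with 1 library each, these cannot be told apart from any other difference between the libraries.

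**Figure D3:**
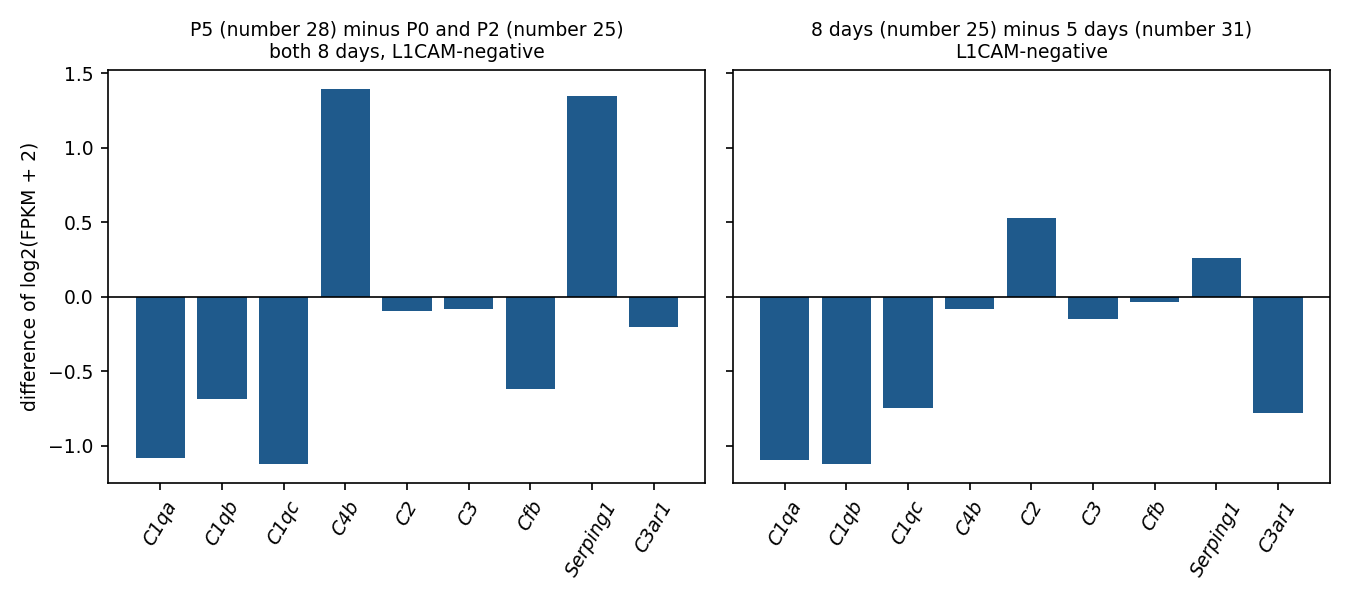
Differences of log2(FPKM + 2) between single L1CAM-negative libraries for the 9 complement genes, P5 minus the P0 and P2 mix at 8 days on the left and 8 days minus 5 days on the right, with no error as each bar compares 1 library with 1. *C4b* and *Serping1* had bars of 1.40 and 1.35 on the left, whereas the *C1q* genes had negative bars on both sides, and *Cfb* is drawn for its kept transcript.

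Markers of other cell types are set beside these values, and not all of the lists had the same direction or order of libraries. Counts of genes lower or higher in these lists stand beside the 10.0% of all genes that were lower and the 11.6% that were higher. Of 16 macrophage genes, 3 were lower in L1CAM-positive spheres, and the list's summed FPKM were 33.6 and 58.3 in L1CAM-positive spheres against 234, 568 and 172 in L1CAM-negative numbers 25, 31 and 28. This is the order of libraries of the summed C1q chains, and 14 of the 16 genes were highest in L1CAM-negative number 31, as were the *C1q* genes and *C3ar1*. *C3* and the kept transcript of *Cfb* were highest there too, but L1CAM-negative number 25 was only 0.15 and 0.04 log2 units lower. The share of all genes highest in that library was not computed. *Lyz2*, which encodes lysozyme, was at 3.94 and 4.52 in L1CAM-positive spheres against 7.09, 8.33 and 6.64 in L1CAM-negative spheres, and *Tyrobp*, a signaling adaptor of myeloid cells, at 2.30 and 3.39 in L1CAM-positive spheres against 4.41, 6.29 and 3.78 in L1CAM-negative spheres. *Csf1r*, the receptor that macrophages depend on, picked with its values known, was at 1.18 and 1.29 in L1CAM-positive spheres against 2.72, 3.91 and 2.61 in L1CAM-negative spheres, and *Cd163* was under 1 FPKM in every library. The part of macrophages in the C1q values was not tested.

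The fibroblast and capsule list had 4 of 8 genes lower, with summed FPKM of 1094 and 1166 in L1CAM-positive spheres against 7167, 5717 and 4608 in L1CAM-negative numbers 25, 31 and 28, its most abundant genes being *Mgp* and *Col1a2*. All 7 adrenocortical genes were lower, led by *Hsd3b1* and *Star*, with sums of 1783 and 1845 FPKM in L1CAM-positive spheres against 12859, 9065 and 7731 FPKM in L1CAM-negative spheres. Of 7 endothelial genes 3 were lower, *Fabp4* and *Emcn* being the most abundant, with sums of 79.0 and 83.8 FPKM in L1CAM-positive spheres against 293, 390 and 561 FPKM in L1CAM-negative spheres. Of the 4 sums, for macrophage, fibroblast, adrenocortical and endothelial genes, only the endothelial one was highest in the P5 library, as *Serping1* and *C4b* were, although 4 of the 7 endothelial genes were not highest there. The part of these cell types in the complement values was not tested. The 6 glial genes, with *Fabp7* the most abundant, were not lower but 4 of them higher in L1CAM-positive spheres. The hepatocyte genes, *Alb* and *Ttr* among them, were under 1 FPKM in all 5 libraries, 5 of 5, and of 4 neutrophil genes measured only *S100a8* was above 1 FPKM in any library, at the floor of the log2 scale in L1CAM-positive spheres against 1.72, 2.38 and 2.21 in L1CAM-negative ones, with *Mpo* under 1 FPKM.

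The level of *C3* in L1CAM-positive spheres as a share of that in L1CAM-negative spheres, at 1.41% for number 25 and 1.77% for number 31, was below the medians of these lists. Over the genes with at least 1 FPKM in the L1CAM-negative library, the median shares for numbers 25 and 31 were 17.9% and 10.1% for macrophage genes, 17.5% and 20.2% for fibroblast and capsule genes, 14.1% and 18.7% for adrenocortical genes and 16.4% and 12.9% for endothelial genes. The single genes of these lists reached down to 0.368% for number 25 and 1.97% for number 31, so that *C3* was below all of them in number 31 and above 1 of them, *Cd34*, in number 25. The shares were 5.53% and 4.81% for *C1qa*, 14.1% and 6.38% for *C1qb*, 7.50% and 6.52% for *C1qc*, 14.5% and 23.1% for *Serping1*, 20.3% and 28.2% for *C2* and 30.3% and 47.1% for *C4b*. *C2* and *C4b* thus lay above the medians of these lists for both numbers. *Serping1* lay among the medians for number 25 and above them for number 31.

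**Figure D4:**
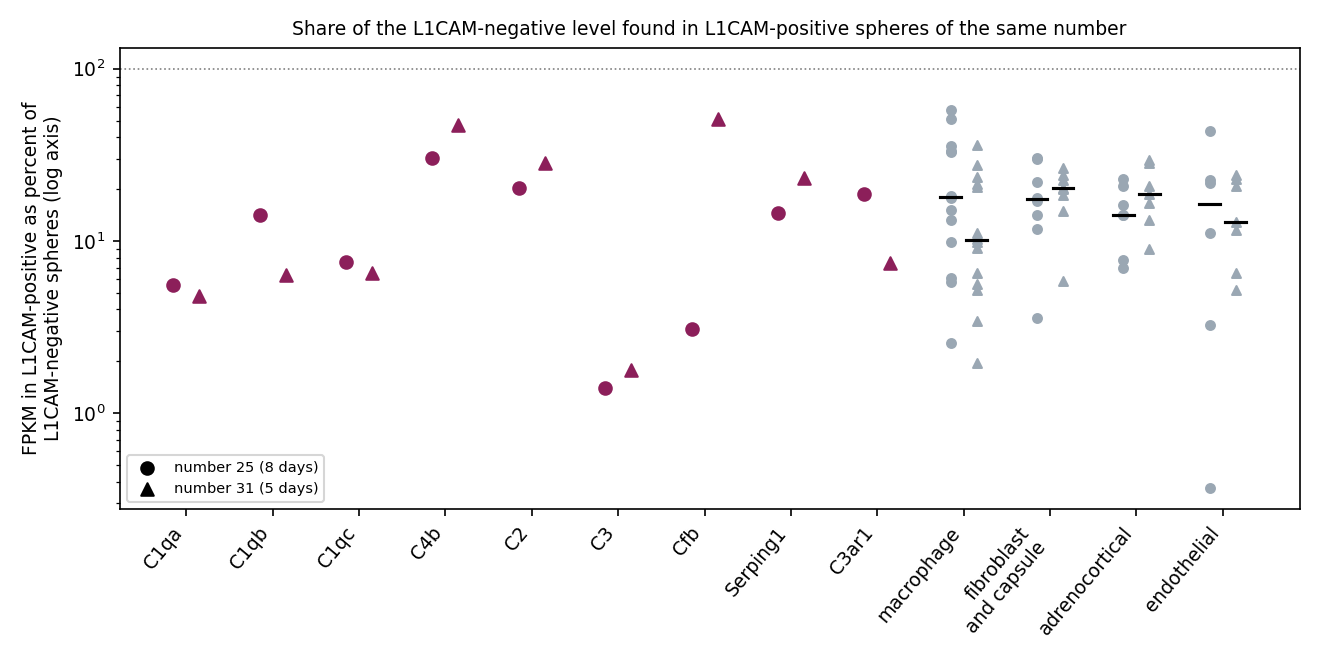
FPKM in L1CAM-positive spheres as a percentage of that in L1CAM-negative spheres of the same number, on a log axis, for the 9 complement genes (magenta) and for genes of 4 marker lists (grey, medians as black lines), with circles for number 25 and triangles for number 31. *C3* at 1.41% and 1.77% lay below the list medians, which were between 10.1% and 20.2%, and the values of *Cfb* lay far apart for its kept transcript, which is plotted, but were 54.2% and 50.9% with both transcripts summed.

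Inflammatory cytokines are known to act on the transcription of complement genes. Of 15 genes of their signaling, 9 were lower in L1CAM-positive spheres, but the part of this signaling in the complement values was not tested. These 15 are genes of receptors and transcription factors of interleukin 1, the interleukin 6 family, interferon gamma and TNF signaling, with the inhibitor gene *Nfkbia*. Of them, 9 were lower at an adjusted p under 0.05, where 10.0% of all genes were, and 6 were not called. None was higher, also at an unadjusted p, and the median log2 ratio was -0.98. *Tnfrsf1a*, a TNF receptor, was at 6.74 and 6.82 in L1CAM-positive spheres against 7.73, 7.85 and 7.98 in L1CAM-negative spheres (limma adjusted p = 0.00881). *Cebpb* was at 6.04 and 6.23 in L1CAM-positive spheres against 6.51, 6.79 and 7.69 in L1CAM-negative spheres and did not pass (adjusted p = 0.264). *Cebpd*, of the same family of C/EBP factors and picked with its values known, was at 2.32 and 3.14 in L1CAM-positive spheres against 4.97, 5.17 and 5.93 in L1CAM-negative spheres (adjusted p = 0.0305).

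The genes most like *C3* over the 5 libraries, by the root mean square difference of log2 values after centring each gene on its mean, were *Fmo2* (0.35), *Dpep1* (0.51), *Cyp11b1* (0.76), *Cp* (0.76) and *Obp2a* (0.79), among 131 genes with a mean of at least 3 and a similar range. *Cyp11b1* encodes the adrenocortical enzyme that makes corticosterone and *Cp* the copper protein ceruloplasmin of plasma. For the mean of the *C1q* genes they were *Hpca* (0.16), *Col6a2* (0.24), *Col1a1* (0.26), *Pla2g5* (0.26) and *Lrrc17* (0.27), among 702 genes. Genes with a mean under 3 could not enter, such as the macrophage gene *Csf1r* with 2.34. *Lyz2* with 6.10 could not enter either, as its range was more than 1 log2 unit wider than that of the *C1q* mean. *Tyrobp* with 4.03 met both limits. *C1qa* and *C1qc* themselves had means of 2.68 and 2.93. These likenesses are descriptions over 5 libraries.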

How the data were processed

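Reads from stranded mRNA libraries of 5 samples were aligned by the authors to mm10 with STAR 2.6.1a, FPKM were computed with Cufflinks, and the deposited log2 values were quantile normalized between samples with limma. The log offset and gene annotation are not given in the sources used here, nor is the number of samples normalized together, though the title of the deposited sheet speaks of 31 samples. The table holds 32737 RefSeq transcripts, of which 202 without a symbol (0.617%) were left out. Each gene is its transcript of highest mean. The fractions were tested against each other in limma 3.58.1 (lmFit, trended eBayes, R 4.3.3), 2-sided, adjusted by Benjamini-Hochberg over 23903 genes with no filter, of which 4354 were at the floor in every library. Depth is unknown, so no counting interval was computed. Intervals are those of limma. The members, lists and tests were chosen with earlier results of these data known. Named genes are the 9 members, the other complement genes called, the 2 most abundant of every list and the 5 genes most like *C3* or the mean of C1q. *Cfd*, *C4bp*, *Cfi*, *Mbl1*, *C6*, *Hc*, *C8a*, *C8b*, *C9*, *Csf1r*, *Cd163*, *Cd34*, *Cebpd*, *Nfkbia* and *Alb* were picked with their values known. Some genes that this rule names are not reported here. Coordinates and promoters are RefSeq's of GRCm38.p6, and all 9 symbols matched. Shared 50-base windows were counted in GENCODE M21 transcripts. The script was tested on simulated data. Python 3.11.15, pandas 2.3.3 and matplotlib 3.10.9 served for tables and figures. The 17 alternatives were pseudocounts of 0.1, 1 and 5, filters, summed transcripts, scaling, the variance estimate, a block for the number, a term for culture period, and fits without 1 library each.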

Additional observations from a re-analysis of the deposited data

How the results depend on the processing

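All 9 complement genes kept a negative log2 fold change in each of 17 alternatives, and none of the other complement genes called changed its direction. Of the 9, 2 were called lower as reported, 5 with only genes of at least 1 FPKM in 2 libraries, 4 with summed transcripts, 1 (*C3*) with robust eBayes, and between 1 and 4 without any 1 library. They numbered 4 without number 28 and 1 (*C3*) without either L1CAM-positive library or without number 25 of the L1CAM-negative ones. Of the other complement genes, 14 were lower and 5 higher as reported, 4 and 2 with robust eBayes, 7 and 3 with a term for culture period, and between 6 and 15 lower and between 2 and 5 higher without any 1 library. With the number as a block, 0 members were called and 0 of the other genes in either direction by limma, nor any gene of the table, as 1 residual degree of freedom was left. At an unadjusted p under 0.05 in this fit, 7 members were lower, and 18 other complement genes were lower and 6 higher, beside 35.2% of all genes in either direction. Libraries of 1 number share age and culture period, but no label says that they share animals, so that they were not treated as pairs. Their deviations from the group means correlated across 9865 genes with r = 0.14 for number 25 and r = -0.01 for number 31. These values cannot decide whether they are pairs. The deviations of the 2 L1CAM-positive libraries mirror each other, and the L1CAM-negative mean takes in number 28. Over all genes, 2393 were lower and 2775 higher as reported, 352 and 797 with robust eBayes, 1273 and 1727 with a term for culture period, and between 521 and 2942 and between 1301 and 2805 without any 1 library. Where 1 L1CAM-positive library was left, its spread was assumed equal to that of the L1CAM-negative libraries.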
